A study of Mus musculus with 6 samples.

Results

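The proteasome genes of the mouse hippocampus were followed on 6 gene chips. Members were all probe sets of the chip annotated with 1 gene symbol that starts with Psma, Psmb, Psmc, Psmd, Psme, Psmf or Psmg and a digit. Of 103 such probe sets, 74 reached a mean signal of 100 in at least 1 of 3 study groups and were tested, out of 23262 tested and 45101 on the chip. They stood for 47 of 49 genes, and Psma8 and Psmb11 stayed under the limit with every probe set. The symbols Psmc3ip and Psme3ip1 are matched by the spelling and kept, but their products are no proteasome components. The first acts in meiotic recombination and the second binds an activator. The probe set shared by Psme2 and Psme2b carried both symbols and was no member.

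The proteasome is the protease complex that breaks down ubiquitin-tagged proteins in the cytosol and nucleus. Its core particle is a barrel of alpha rings, which form the gate, and beta rings, which hold the catalytic sites. The regulatory particle on its end has a base with ATPases that unfold the substrate and a lid that removes ubiquitin. In neurons the complex also takes part in the turnover of synaptic proteins, and aggregated amyloid peptides are known to impair it.

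Hippocampal RNA came from male Tg2576 mice with a C57BL/6 background (C57BL/6J in the methods). These mice express human amyloid precursor protein (isoform APP695) carrying the Swedish mutation, driven by the prion protein promoter, which is described as neuron-specific. All 3 groups carried the transgene. Tg-18mo were untreated mice 18 months old, Tg-18mo-ACEI were mice 18 months old treated with captopril, which blocks the angiotensin-converting enzyme, and Tg-12mo were untreated mice 12 months old. Captopril was given at 20 mg/kg/day through the drinking water over the last 6 months. A group had 2 chips, each with pooled RNA of 4 mice. Whether the 2 pools of a group hold different mice is not spelled out beyond the word biological, so the p-values rest on chip-to-chip spread alone, part of which may be technical. The number of chips limits the precision. In bulk tissue, fewer cells of a type and less RNA per cell cannot be told apart.

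The signals are linear intensities that were scaled to a target value of 600. A log2 difference is the difference between the mean log2 signals of 2 groups, given with its standard error (SE). A probe set is called higher or lower where limma's adjusted p (Benjamini-Hochberg over all 23262 probe sets) was under 0.05. Where a gene had several probe sets, it stands here by the one with the highest mean signal, the brightest. Levels were compared between groups only, never between probe sets. The median SD of log2 signals between the 2 chips of a group was 0.04 over the members in each group.

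The chips differed in ways that touch these genes. All 7 listed markers of hippocampal principal neurons were above the signal limit, as the tissue label requires. Bright probe sets were brighter on the Tg-12mo chips: among those with a mean signal of 10000 or more, the median log2 difference of Tg-12mo against Tg-18mo was 0.49 as deposited and 0.01 after quantile normalization, which gives all chips the same distribution of signals. Of the 74 members, 42 had a mean signal of 2000 or more, so both scalings are given below. The 18S rRNA control read 10219 and 11144 on the Tg-18mo chips and at most 2214 on the other 4. The 3′/5′ ratio of Actb was 1.88 and 1.98 for Tg-18mo, 1.38 and 1.45 for Tg-18mo-ACEI, and 1.77 and 1.83 for Tg-12mo. The spiked hybridization controls averaged 8325 and 8346 on the Tg-12mo chips and 3488 to 3804 on the other 4. The spiked poly-A controls averaged 1247 and 1243 for Tg-12mo, 430 and 423 for Tg-18mo-ACEI, and 186 and 179 for Tg-18mo. The part of these differences in the results below was not tested.

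Promoter sequence was looked at for all tested members. RefSeq (GRCm38.p6) gave 43 windows of 300 bases, from 250 bases before to 50 after the start, for 40 of the 47 genes. The box CCAAT, on either strand, was present in 15 of the 43 windows (34.9%), against 37.4% of 32851 windows in the table. All 7 alpha ring genes had a window, and 5 held CCAAT. Those 5 are shown with Psmb3 and Psmc2, which had the largest age differences among the beta ring and ATPase genes. The sequences read 5′ to 3′ on the strand of the gene, and the capitals mark CCAAT.
Psma1: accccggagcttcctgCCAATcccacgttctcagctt
Psma2: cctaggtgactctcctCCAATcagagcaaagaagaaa
Psma3: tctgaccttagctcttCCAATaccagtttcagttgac
Psma6: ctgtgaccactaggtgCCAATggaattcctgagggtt
Psma7: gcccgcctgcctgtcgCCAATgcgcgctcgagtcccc
Psmb3: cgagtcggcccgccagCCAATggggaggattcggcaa
Psmc2: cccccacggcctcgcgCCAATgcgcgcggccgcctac

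These stretches lie at chr7:114276194-114276230 (minus strand, Psma1), chr13:14613172-14613208 (plus, Psma2), chr12:70974468-70974504 (plus, Psma3), chr12:55384177-55384213 (plus, Psma6), chr2:180042640-180042676 (minus, Psma7), chr11:97703375-97703411 (plus, Psmb3) and chr5:21785231-21785267 (plus, Psmc2). The first C of the box shown stood 98, 54, 139, 29, 196, 43 and 28 bases before the start of the respective gene. All 7 boxes shown lie upstream of the annotated start. The windows of Psma1, Psma3, Psma6 and Psmb3 held further CCAAT boxes, which are not printed.

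The core of the antioxidant response element, TGACNNNGC, which the transcription factors Nfe2l1 and Nfe2l2 recognise, was present in 6 of the 43 windows (14%), against 12.4% of all. The 6 genes were Psmb5, Psmb6, Psmc6, Psmd9, Psmd12 and Psme4, none of which held CCAAT. Psmb5 and Psmb6 are shown as catalytic subunits, and Psmc6 as the one of the 6 that was called in both comparisons with Tg-18mo. The capitals mark the motif, which in Psmc6 lies on the opposite strand.
Psmb5: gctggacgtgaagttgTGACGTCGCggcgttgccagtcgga
Psmb6: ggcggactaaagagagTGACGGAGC
Psmc6: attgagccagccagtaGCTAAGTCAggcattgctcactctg

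Their positions are chr14:54618018-54618058 (minus, Psmb5), chr11:70525332-70525356 (plus, Psmb6) and chr14:45329581-45329621 (plus, Psmc6). A match describes the letters of the window and is not a measured binding site.

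The first comparison asked which proteasome genes differed between captopril-treated and untreated mice of 18 months. Captopril-treated mice had higher signals of the alpha ring genes Psma4 and Psma1, of the lid genes Psmd6 and Psmd7 and of the chaperone Psmd5. They had lower signals of the regulatory particle genes Psmd2, Psmd3 and Psmd4 and of the beta ring genes Psmb1 and Psmb3. Of the 74 probe sets, 11 were higher (14.9%) and 9 lower (12.2%), against 15.9% higher and 17.7% lower of all probe sets tested. The members' share of calls was thus near the background in both directions. Their median log2 difference was -0.04, the same as that of all probe sets (-0.04). After quantile normalization 13 were higher and 11 lower (16.3% and 18.2% of all), and all 20 calls were also made there. The treated chips lay above both untreated chips for 23 members (31.1%) and below them for 32 (43.2%), against 31.1% and 40.3% of all probe sets.

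**Figure D1:**
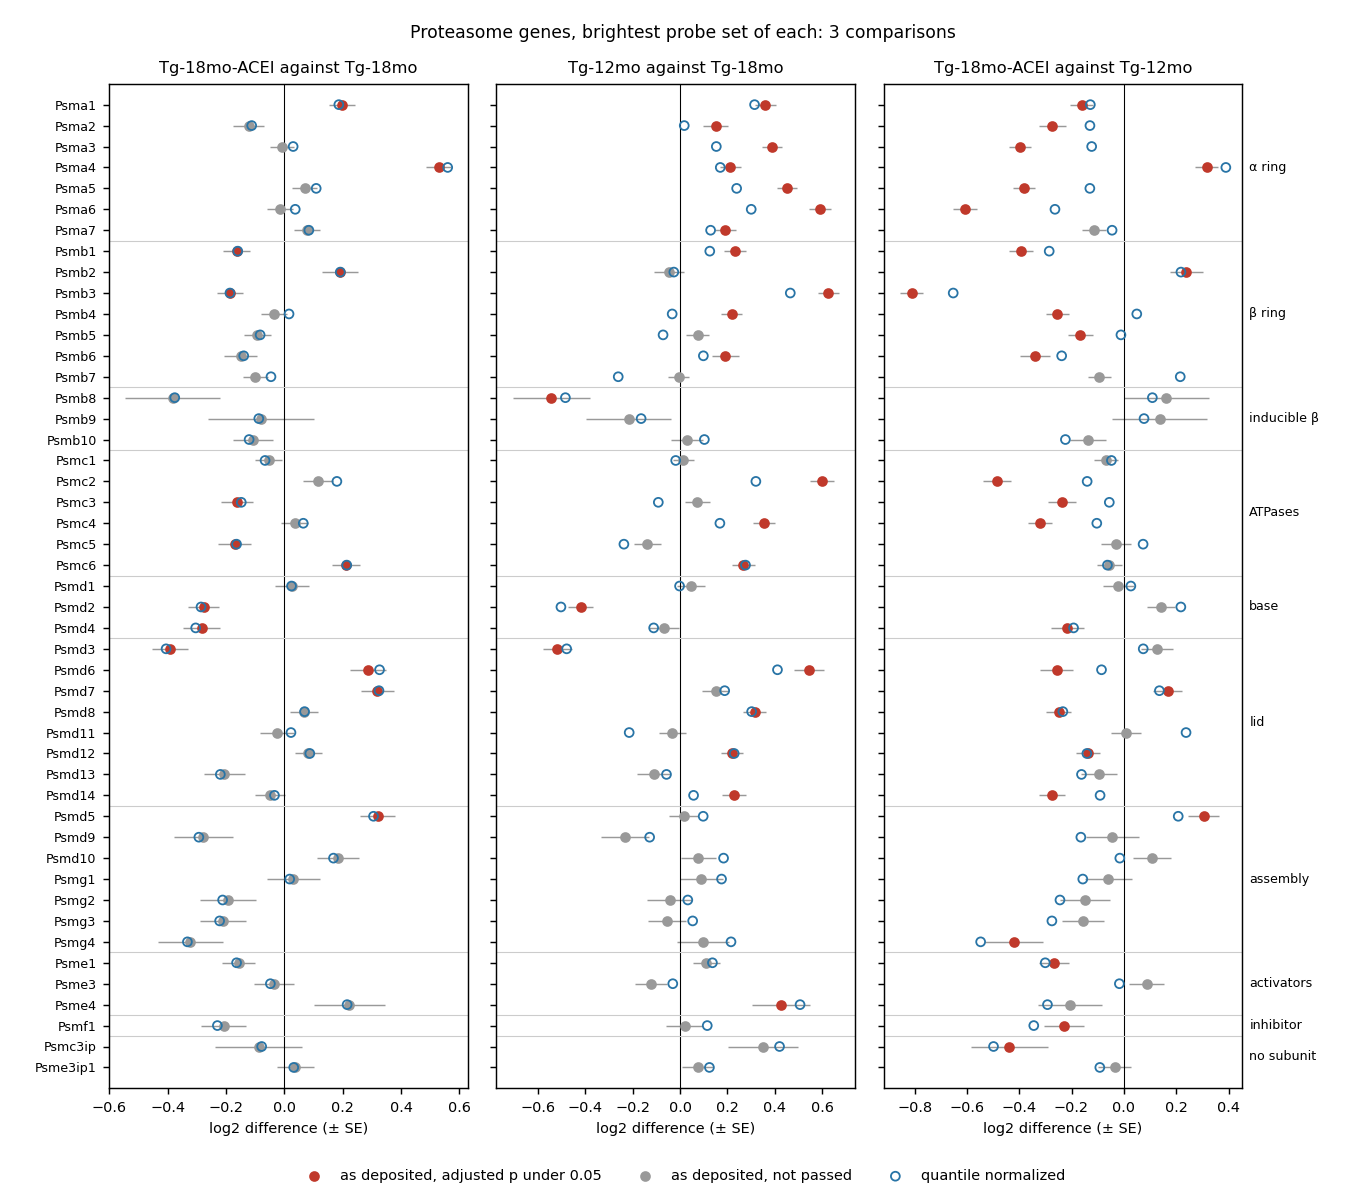
Log2 differences (x axis, with SE) of the brightest probe set of 47 genes, grouped by role, in the 3 comparisons; red points passed limma's adjusted p of 0.05 as deposited, grey points did not, and open blue circles give the value after quantile normalization. In Tg-12mo against Tg-18mo all 7 alpha ring genes lie to the right of 0, while in Tg-18mo-ACEI against Tg-18mo Psma4 (0.53) stands apart from the other 6.

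Psma4, an alpha ring subunit, had the largest difference of any member gene with captopril. Its signal was 3860.5 and 3859 for Tg-18mo, 5549 and 5585 for Tg-18mo-ACEI, and 4393 and 4549 for Tg-12mo. The groups did not overlap, and the treated mice were the highest. Psma4 was 1.44-fold higher with captopril than without (log2 difference 0.53, SE 0.04, limma adjusted p = 7.4e-05). It was also higher in treated mice than in Tg-12mo mice (0.32, SE 0.04, adjusted p = 0.00076). Both calls were kept when any 1 of the 6 chips was left out and after quantile normalization.

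Psmd5 is a chaperone that guides assembly of the base and is released from the finished complex. Its signal was 1190.5 and 1186 for Tg-18mo, 1521 and 1446 for Tg-18mo-ACEI, and 1176 and 1226 for Tg-12mo. Only the treated chips stood out, and the other 2 groups overlapped. Psmd5 was higher against Tg-18mo (0.32, SE 0.06, adjusted p = 0.0044) and against Tg-12mo (0.30, SE 0.06, adjusted p = 0.0042). Psmd7, a structural subunit of the lid, read 2151 and 2104 for Tg-18mo, 2705 and 2599 for Tg-18mo-ACEI, and 2269 and 2458 for Tg-12mo. Its treated chips were above all others, and it was higher against Tg-18mo (0.32, SE 0.06, adjusted p = 0.0037). With Psma4, these were the 3 of 7 higher genes whose call with captopril stayed on leaving out each chip in turn.

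The other 4 higher genes were nearer to the threshold. Psma1, a further alpha ring subunit, had a log2 difference of 0.20, the lid subunit Psmd6 0.29, the ATPase Psmc6 0.21 and the beta ring subunit Psmb2 0.19. A second probe set of Psmd6 gave -0.001 with captopril and was not called. Psma1 and Psmd6 lost the call without replicate 2 of Tg-18mo or of Tg-18mo-ACEI, with adjusted p up to 0.064 and 0.069. Psmc6 lost it without replicate 1 of either of these groups (up to 0.068), and Psmb2 without Tg-18mo replicate 1 or 2 or Tg-18mo-ACEI replicate 1 (up to 0.25).

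Psmd2 is the scaffold of the base on which substrate receptors dock. Its signal was 6215 and 6493 for Tg-18mo, 5259 and 5228 for Tg-18mo-ACEI, and 4550.5 and 4954 for Tg-12mo. The untreated mice of 18 months were the highest, with no overlap between any of the groups. Psmd2 was lower with captopril (log2 difference -0.28, SE 0.05, adjusted p = 0.0054) and lower at 12 months (-0.42, SE 0.05, adjusted p = 0.00037), both against the same 2 chips. Psmd3, a large structural subunit of the lid, read 2757 and 3044, 2253 and 2165, and 1999 and 2045 in the same order of groups. Its differences from Tg-18mo were -0.39 with captopril (SE 0.06, adjusted p = 0.0018) and -0.52 at 12 months (SE 0.06, adjusted p = 0.00023). Psmd2 and Psmd3 kept all of these calls without each chip and after quantile normalization, and their treated signals did not pass against Tg-12mo (adjusted p = 0.064 and 0.13). After quantile normalization Psmd2 was higher in treated than in Tg-12mo mice (0.22, adjusted p = 0.0075).

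The other 5 lower genes with captopril did not keep their call in every fit that left out 1 chip. Their differences stayed below 0 in these fits, and that of Psmc5 ran from -0.18 to -0.16 where its call was lost. Psmd4, a ubiquitin receptor, read 4320.5 and 4719 for Tg-18mo, 3758 and 3661 for Tg-18mo-ACEI, and 4108 and 4519 for Tg-12mo. It was lower with captopril (-0.28, SE 0.06, adjusted p = 0.01), but its adjusted p was 0.077 without replicate 2 of Tg-18mo and 0.063 on leaving out that of Tg-18mo-ACEI. Psmb3 (-0.19) lost the call without either Tg-18mo chip or without Tg-18mo-ACEI replicate 2 (adjusted p up to 0.086). Psmb1 (-0.16) and the ATPase Psmc5 (-0.17) lost it without any 1 of the 4 chips compared (up to 0.14 and 0.18), and the ATPase Psmc3 (-0.16) without any 1 of the 6 (up to 0.25). Over the 74 probe sets, the number called higher with captopril fell from 11 to 7 without Tg-18mo replicate 1, to 6 without Tg-18mo replicate 2 and to 7 without Tg-18mo-ACEI replicate 2. The number called lower fell from 9 to 5, 2 and 3 in the same fits. At the thresholds of the study (unadjusted p of 0.01 and a 2-fold difference, here with limma's p) 0 members were called in either direction. Of all probe sets 3.01% were higher and 1.04% lower at these thresholds. At an unadjusted limma p under 0.05 alone 14 members were higher and 19 lower. No share of all probe sets is given at this limit or with a chip left out, so these counts do not set the members apart.

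**Figure D2:**
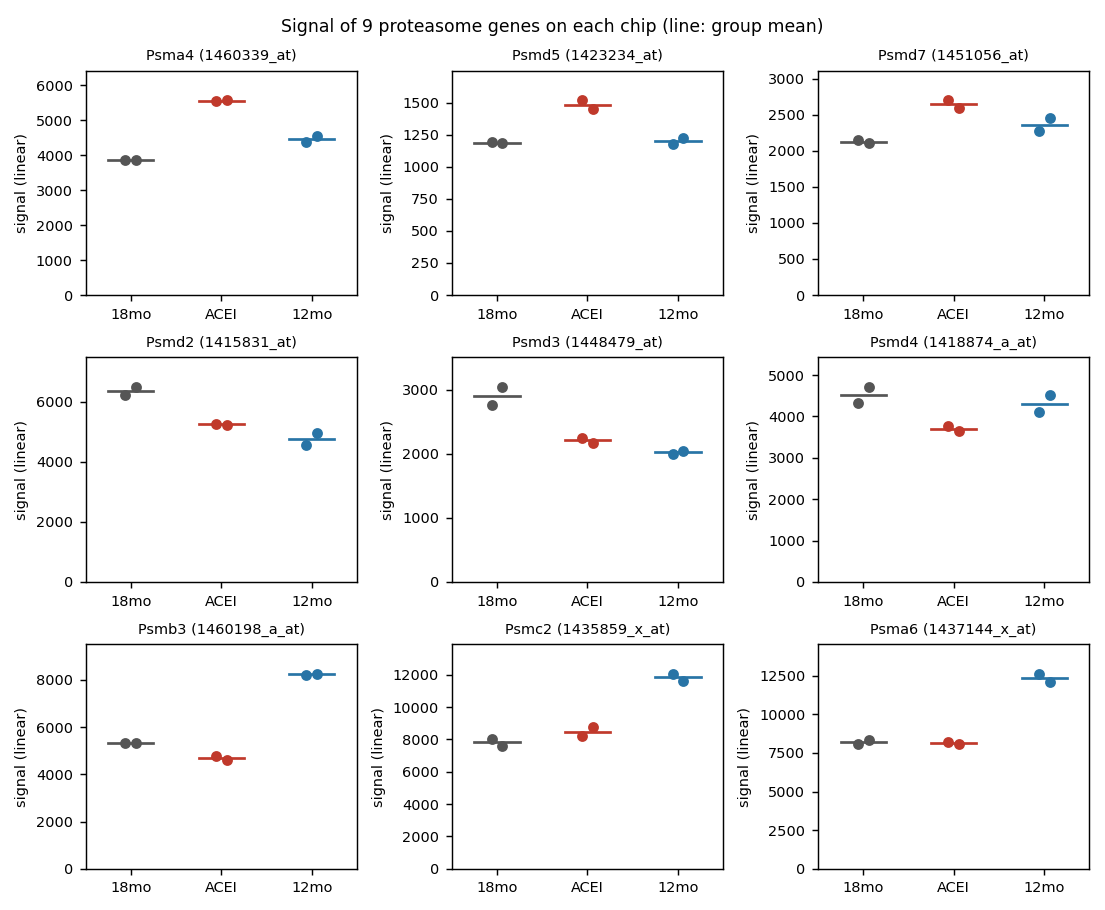
Linear signal of 9 proteasome genes on each of the 6 chips (points) with the mean of each group (line), where 18mo, ACEI and 12mo stand for Tg-18mo, Tg-18mo-ACEI and Tg-12mo; the y axis starts at 0. Treated chips are the highest for Psma4, Psmd5 and Psmd7, untreated chips of 18 months the highest for Psmd2 and Psmd3, and Tg-12mo chips the highest for Psmb3, Psmc2 and Psma6.

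The second comparison was between the untreated groups of 12 and 18 months and asked which proteasome genes differed with age in this model. These groups differ in plaque load as well as in age, and the part of each was not tested. Core particle genes were higher at 12 months: all 7 alpha ring genes passed, as did 4 of 7 constitutive beta ring genes, and the largest difference was that of Psmb3 (0.63). After quantile normalization 6 of the 7 alpha ring genes were higher, but of the constitutive beta ring genes 2 were higher and 1 lower, and their median moved from 0.19 to -0.03. The ATPases Psmc2, Psmc4 and Psmc6 and the lid subunits Psmd6, Psmd8, Psmd12 and Psmd14 were higher too. Psmd2, Psmd3 and the inducible catalytic subunit Psmb8 were lower. Of the 74 probe sets, 27 were higher (36.5%) and 6 lower (8.11%), against 21.5% and 25.9% of all probe sets tested. The median log2 difference of the members was 0.09, and that of all probe sets -0.05. After quantile normalization 26 members were higher (35.1%) and 8 lower (10.8%), against 22% and 21.9% of all, with medians of 0.11 and -0.01. The chips of the groups did not overlap for 38 members in the higher direction and 12 in the lower, 51.4% and 16.2% of the members, against 33.6% and 40.9% of all probe sets.

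The brightness of the members bears on these shares. Among the 42 members with a mean signal of 2000 or more, 25 were higher (59.5%) and 3 lower (7.14%). Of all 4731 probe sets as bright, 45% were higher and 23.2% lower. After quantile normalization the shares were 45.2% and 11.9% for the members and 30.5% and 28.9% for all. The median log2 difference of these members was 0.20 as deposited and 0.12 after quantile normalization, where that of all bright probe sets was 0.11 and 0.00. The 32 dimmer members had a median of 0.02 and 0.11 on the 2 scalings.

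**Figure D3:**
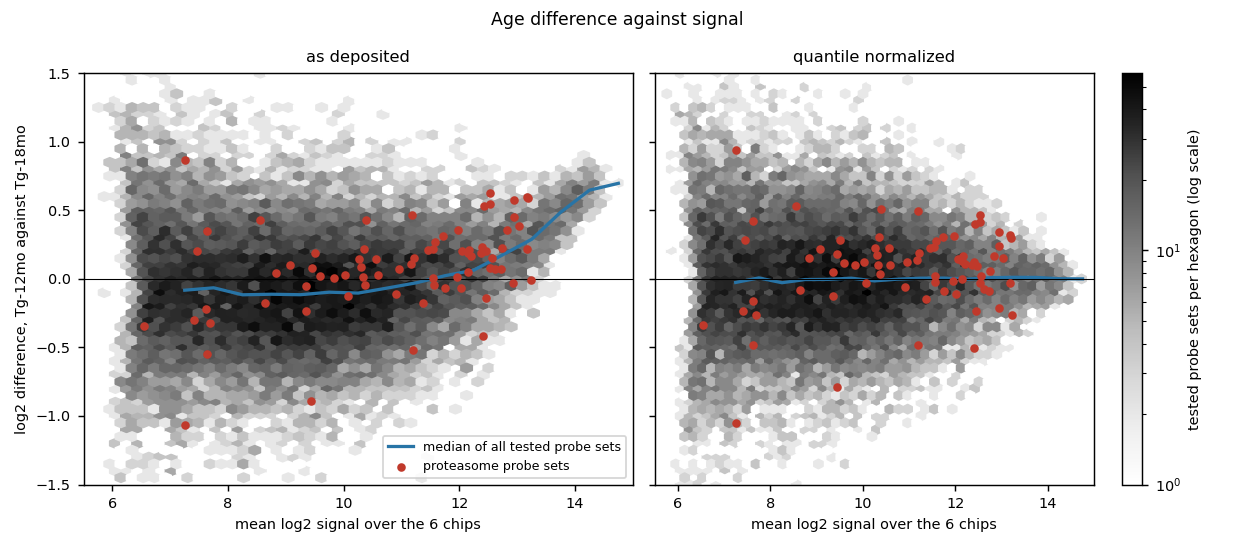
Log2 difference of Tg-12mo against Tg-18mo (y axis) by mean log2 signal over the 6 chips (x axis), as deposited (left) and after quantile normalization (right), with all tested probe sets as grey hexagons on a log colour scale, their running median as a blue line and the 74 proteasome probe sets as red points. The line climbs above 0 at high signal on the left and stays at 0 on the right, and most bright red points lie above it in both panels.

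The alpha ring genes differed between the ages by 0.15 to 0.59 (median 0.36) as deposited and by 0.02 to 0.31 (median 0.17) after quantile normalization. Psma6 read 8053 and 8352 for Tg-18mo, 8192 and 8043 for Tg-18mo-ACEI, and 12629 and 12114 for Tg-12mo. The 2 groups of 18 months overlapped, and the young mice were 1.51-fold above the untreated old ones (log2 difference 0.59, SE 0.05, adjusted p = 3.3e-05, quantile 0.30). The differences of Psma5 (0.45), Psma3 (0.39), Psma1 (0.36) and Psma4 (0.21) also passed on both scalings and without any 1 chip. Psma7 (0.19) lost its call without Tg-18mo replicate 2 (adjusted p = 0.062). Psma2 (0.15) lost it after quantile normalization (0.02) and on leaving out any chip but Tg-18mo replicate 2 (adjusted p up to 0.28).

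In the beta ring, Psmb3 read 5329 and 5347 for Tg-18mo, 4798 and 4591 for Tg-18mo-ACEI, and 8208 and 8266 for Tg-12mo. The groups were apart, with treated mice the lowest and young mice the highest. Psmb3 was 1.54-fold higher in young than in untreated old mice (log2 difference 0.63, SE 0.04, adjusted p = 2.4e-05, quantile 0.47). Its second probe set gave 0.20 (adjusted p = 0.021), which did not pass after quantile normalization (0.15, adjusted p = 0.059) or without either Tg-18mo chip or Tg-12mo replicate 2 (adjusted p up to 0.11). Psmb1 was higher at 12 months by 0.23 on its brightest probe set. Psmb4 was higher by 0.22 on its brightest probe set, as deposited only (quantile -0.03). The second probe set of Psmb4 was higher on both scalings (0.57, adjusted p = 0.0016, and quantile 0.34, adjusted p = 0.036).

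The catalytic subunits of the standard proteasome are Psmb6, Psmb7 and Psmb5, with caspase-like, trypsin-like and chymotrypsin-like activity. Psmb6 read 5093 and 5386 for Tg-18mo, 4920.4 and 4535 for Tg-18mo-ACEI, and 5859 and 6105 for Tg-12mo. It was higher at 12 months (0.19, SE 0.06, adjusted p = 0.023), a call it did not keep on leaving out Tg-18mo replicate 1 (0.15, adjusted p = 0.13) or Tg-12mo replicate 2 (0.16, adjusted p = 0.11), nor after quantile normalization (0.10, adjusted p = 0.15). Psmb5 read 6193 and 6479, 6001 and 5884, and 6521 and 6824 in that order, so that treated chips were the lowest and young chips the highest. Its difference at 12 months was 0.07 (SE 0.05, adjusted p = 0.23). Psmb7 read 9662 and 10049, 9239.9 and 9151, and 9758 and 9872, and its young and untreated old chips overlapped. Its age difference was -0.01 (SE 0.04, adjusted p = 0.93) as deposited and -0.26 (adjusted p = 0.00065) after quantile normalization, so the scaling decides whether this bright gene is called. None of the 3 passed with captopril (-0.15, -0.10 and -0.09 for Psmb6, Psmb7 and Psmb5, adjusted p from 0.074 to 0.17).

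The inducible subunits Psmb9, Psmb10 and Psmb8 take the places of Psmb6, Psmb7 and Psmb5 in the immunoproteasome, which immune cells and interferon-treated cells build. Psmb8 read 269 and 223 for Tg-18mo, 199 and 178 for Tg-18mo-ACEI, and 174 and 163 for Tg-12mo. Untreated old chips were above the other 4, which lay apart by group. Psmb8 was lower at 12 months (-0.54, SE 0.16, adjusted p = 0.024, quantile -0.48) and its value with captopril was -0.38 (adjusted p = 0.10). It no longer passed between the ages on leaving out Tg-18mo replicate 1 (-0.41, adjusted p = 0.17) or Tg-12mo replicate 2 (-0.50, adjusted p = 0.07). Psmb9 read 207 and 214, 199 and 198, and 212 and 154, with 1 young chip as high as the old ones, and its age difference was -0.22 (SE 0.18, adjusted p = 0.35). Psmb10 read 1504 and 1631, 1523 and 1389, and 1571 and 1627, and the chips of Tg-12mo overlapped those of Tg-18mo (0.03, SE 0.07, adjusted p = 0.75). With captopril the values of Psmb9 and Psmb10 were -0.08 and -0.11 (adjusted p = 0.76 and 0.26).

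Genes of antigen presentation and the interferon response moved with age as well. Of 10 such markers on the chip, all tested, 6 were lower at 12 months (25.9% of all probe sets were). The median difference of the 10 was -0.34. The 6 lower markers were H2-D1, H2-K1, B2m, Cd74, Irf1 and Irf8. The summed signal of the 10 was 11162 and 11871 for Tg-18mo, 10365 and 10696 for Tg-18mo-ACEI, and 7503 and 7826 for Tg-12mo, and no marker was at 0. With captopril 3 of the 10 were lower, against 17.7% of all probe sets. The part of immune cells in the Psmb8 values was not tested. Summed markers of microglia ran from 11463 to 12811 over all 6 chips, and 2 of these 7 were higher and 3 lower at 12 months.

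Other cell type markers were looked at in the age comparison too, in which 21.5% of all probe sets were higher and 25.9% lower. Their sums are of signals as deposited and weigh bright probe sets most, which were brighter on the Tg-12mo chips. The 7 markers of principal neurons summed to 35618 to 37788 on the 4 chips of 18 months and 42987 and 44460 at 12 months. Of these, 2 were higher and 2 lower, with a median log2 difference of -0.06. The 4 oligodendrocyte markers summed to 33703 to 39223 at 18 months and 54651 and 55716 at 12 months. Again 2 were higher and 2 lower, with a median of 0.13. The 6 choroid plexus markers summed to 24944 and 27364 for Tg-18mo, 19885 and 21918 for Tg-18mo-ACEI, and 42820.2 and 43084 for Tg-12mo, and 5 of the 6 were lower with captopril. At 12 months 1 of these 6 was higher and 2 were lower, with a median difference of -0.04. The 4 endothelial markers summed to 1546 and 1728 for Tg-18mo, 1902 and 1867 for Tg-18mo-ACEI, and 1405 and 1346 for Tg-12mo, with 2 lower at 12 months and a median of -0.58. The 5 astrocyte markers summed to 34262 to 36871 over all chips, with 2 higher and 2 lower at 12 months. No marker was at 0, and the part of cell composition in the proteasome values was not tested.

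Among the 6 ATPases, Psmc2 read 8021 and 7619 for Tg-18mo, 8192 and 8753 for Tg-18mo-ACEI, and 12072 and 11631 for Tg-12mo. The young chips stood above all others by a wide margin. Psmc2 was 1.52-fold higher at 12 months (log2 difference 0.60, SE 0.05, adjusted p = 5.5e-05, quantile 0.32). Its second probe set, however, gave 0.08 (adjusted p = 0.20). Psmc4 (0.36) and Psmc6 (0.27) were higher on both scalings, while Psmc1 and Psmc3 did not pass on either (0.01 and 0.07 as deposited). Psmc5 did not pass as deposited (-0.14) and was lower after quantile normalization (-0.24).

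In the lid, Psmd6 (0.54), Psmd8 (0.32), Psmd14, the deubiquitinase of the lid (0.23), and Psmd12 (0.22) were higher at 12 months. The call of Psmd14 was lost after quantile normalization (0.06) and without Tg-18mo replicate 2 (adjusted p = 0.053). Of the activators, which open the gate of the core particle, the brightest probe set of Psme4 was higher at 12 months (0.43, SE 0.12, adjusted p = 0.02), with 1 treated chip (1572) at the young level and the other (1158) at the old level. Its call was lost without either Tg-18mo chip and without Tg-12mo replicate 1 (adjusted p up to 0.083), and the other probe sets of the gene gave 0.00 and -0.18. Psme1, a part of the interferon-inducible activator, read 2282 and 2363 for Tg-18mo, 2145 and 2023 for Tg-18mo-ACEI, and 2433 and 2583 for Tg-12mo. The treated chips were the lowest and the young chips the highest, but neither difference from Tg-18mo passed (-0.16 and 0.11, adjusted p = 0.065 and 0.14). Psme3, the nuclear activator, read 1104 and 1127, 1142 and 1038, and 1009 and 1042, with all groups close together (-0.04 with captopril and -0.12 at 12 months, adjusted p = 0.72 and 0.18). The 7 assembly chaperones differed by -0.23 to 0.10 between the ages, with 0.09 as the smallest adjusted p, that of Psmd9. Over all roles, 14 of the 19 higher genes and 2 of the 3 lower genes kept their age call without each chip in turn, and 15 of 19 and 3 of 3 kept it after quantile normalization.

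**Figure D4:**
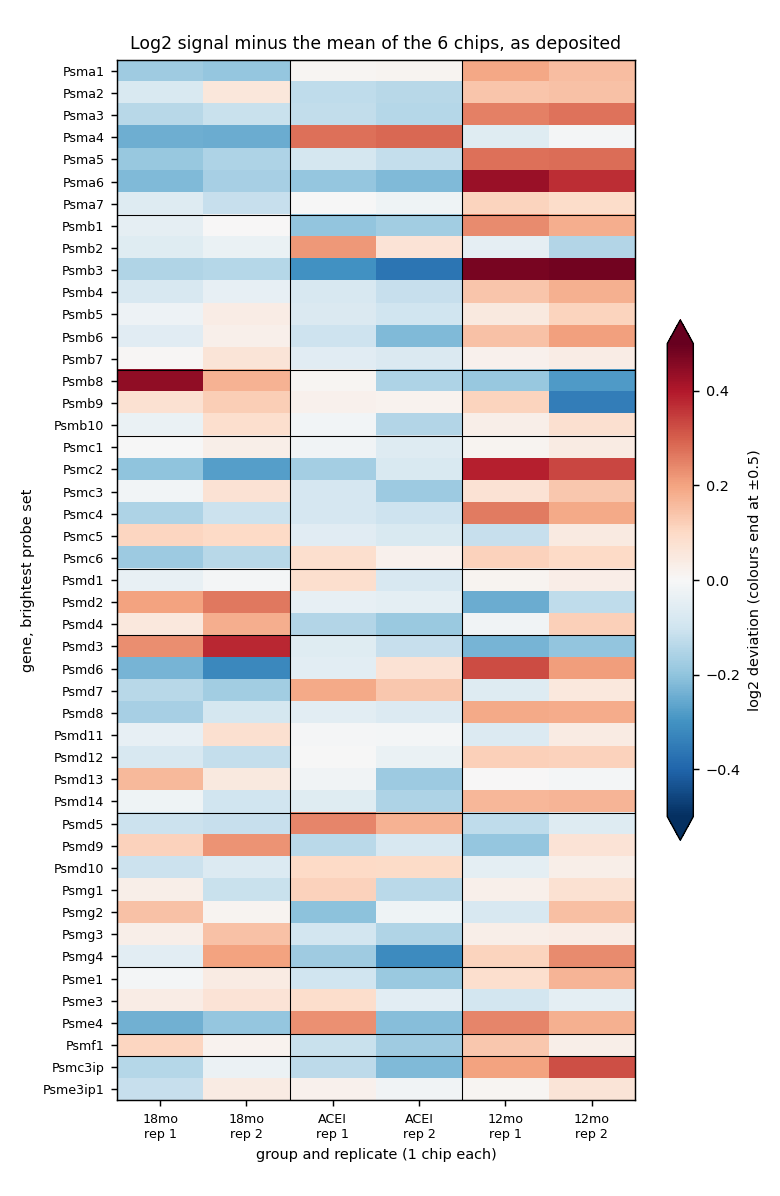
Log2 signal of the brightest probe set of 47 genes (rows, grouped by role) on each chip (columns) minus the mean of the 6 chips, as deposited, with colours ending at ±0.5; 18mo, ACEI and 12mo stand for Tg-18mo, Tg-18mo-ACEI and Tg-12mo. The Tg-12mo columns are red for most alpha ring genes and for Psmb3 and Psmc2, the Tg-18mo columns are red for Psmb8, Psmd2 and Psmd3, and the Tg-18mo-ACEI columns are red for Psma4.

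The third comparison set captopril-treated mice of 18 months against the mice of 12 months, the age at which treatment began. It shares its chips with the other 2 comparisons. Of the 74 probe sets, 7 were higher (9.46%) and 30 lower (40.5%) in treated mice, against 22.3% and 17.7% of all. After quantile normalization 8 were higher (10.8%) and 23 lower (31.1%), against 18.1% and 18%. Among the 42 bright members 3 were higher (7.14%) and 25 lower (59.5%), against 19.2% and 42.3% of all as bright. After quantile normalization these shares were 11.9% and 33.3% for the members and 25.4% and 25.5% for all. The medians over the 74 were -0.13 for the members and 0.05 for all as deposited, and -0.09 and 0.00 after quantile normalization. For 42 members (56.8%) the treated chips lay below both young chips and for 15 (20.3%) above, against 31.4% and 39.6% of all. The number of lower members was 19 without Tg-18mo-ACEI replicate 2, and that of higher members was 4 without either treated chip. At the study's thresholds 0 members were called in either direction, against 2.02% and 1.23% of all. At an unadjusted limma p under 0.05 alone 10 were higher and 33 lower, again without a share of all probe sets. The counts with a chip left out have no such share either.

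By gene, 22 of 47 were lower and 4 higher in treated than in young mice. Psmb3 (-0.81, SE 0.04, adjusted p = 1.4e-05), Psma6 (-0.61, SE 0.05, adjusted p = 3.9e-05) and Psmc2 (-0.48, SE 0.05, adjusted p = 0.0002) had the largest falls. The first 2 passed after quantile normalization (-0.65 and -0.26), and Psmc2 did not (-0.14, adjusted p = 0.11). Among catalytic subunits, Psmb6 was lower (-0.34, adjusted p = 0.0018), with the same call after quantile normalization and without each chip. Psmb5 was lower as deposited (-0.17, adjusted p = 0.023) but not after quantile normalization (-0.01), nor without either treated chip or Tg-12mo replicate 2 (adjusted p up to 0.12). Psmb7 turned from -0.09 (adjusted p = 0.12) to 0.22 (adjusted p = 0.0024) with the scaling. Psme1 was lower on both scalings (-0.27 and -0.30). Psmf1, an inhibitor of the core particle, read 835 and 785 for Tg-18mo, 717 and 685 for Tg-18mo-ACEI, and 850.1 and 792 for Tg-12mo, so that the treated chips were the lowest. It was lower against Tg-12mo (-0.23, adjusted p = 0.043), a call lost on leaving out any chip but Tg-12mo replicate 2 (adjusted p up to 0.18), and gave -0.21 against Tg-18mo (adjusted p = 0.066), which passed after quantile normalization (-0.23, adjusted p = 0.047).

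The 4 genes above the level of young mice were Psma4, Psmd5, Psmd7 (0.17) and Psmb2. Psmb2 read 2915 and 2965 for Tg-18mo, 3531 and 3189 for Tg-18mo-ACEI, and 2947 and 2745 for Tg-12mo. Both treated chips were above the other 4, by 0.24 against Tg-12mo (SE 0.06, adjusted p = 0.016) and 0.19 against Tg-18mo (SE 0.06, adjusted p = 0.047). The first call was lost without Tg-18mo-ACEI replicate 1 (0.17, adjusted p = 0.11) and without Tg-12mo replicate 2 (0.19, adjusted p = 0.088). That of Psmd7 was lost after quantile normalization and on leaving out any chip but Tg-12mo replicate 2 (adjusted p up to 0.20).

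Genes called in both comparisons with Tg-18mo are given side by side, since these comparisons share the 2 untreated chips. With captopril and at 12 months, the differences were 0.53 and 0.21 for Psma4, 0.20 and 0.36 for Psma1, 0.29 and 0.54 for Psmd6, and 0.21 and 0.27 for Psmc6. They were -0.28 and -0.42 for Psmd2 and -0.39 and -0.52 for Psmd3. For the beta ring genes Psmb1 and Psmb3 the values had opposite signs, -0.16 and 0.23 for the first and -0.19 and 0.63 for the second. On the brightest probe set of these 2 genes the treated chips lay below both untreated old chips while the young chips lay above them. The dim probe sets of Psmb1, given further below, did not show this order.

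Several probe sets were tested for 19 genes, and they did not always give the same answer. Between the ages, all probe sets of a gene passed in the same direction for 4 of the 19, passed in opposite directions for 2, and included at least 1 that did not pass for the other 13. The median gap between the highest and lowest difference of a gene was 0.39. With captopril, all passed one way for 2 genes (Psmb3 and Psmc6), opposite calls were made for 0 of the 19, and the median gap was 0.23. In the third comparison 5 genes passed one way throughout and 2, Psmb1 and Psmc6, had opposite calls (-0.39 for the bright probe set of Psmb1, with 1420052_x_at higher). After quantile normalization only Psmb1 had opposite calls there.

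Psmb1 and Psmc4 had opposite calls between the ages. The brightest probe set of Psmb1 read 5219 and 5386 for Tg-18mo, 4698 and 4774 for Tg-18mo-ACEI, and 6344 and 6110.3 for Tg-12mo (0.23 at 12 months, adjusted p = 0.0035). A dim one (1420052_x_at) read 232 and 167, 157 and 234, and 123 and 71.9 (-1.06, SE 0.31, adjusted p = 0.022). Another dim one (1420053_at) read 134 and 91.7, 165 and 159, and 181 and 225 (0.87, SE 0.23, adjusted p = 0.013). The former was the only member past the study's thresholds in this comparison (1.35%, against 2.51% lower and 1.78% higher of all probe sets). It lost its call without Tg-18mo replicate 1 or Tg-12mo replicate 2 (adjusted p up to 0.13), and 1420053_at lost its own without replicate 2 of either group (up to 0.086). For Psmc4 the probe set 1416290_a_at gave 0.36 (6529 and 6740.1 for Tg-18mo, 8696 and 8284 for Tg-12mo) and 1416291_at gave -0.17 (2761 and 2842, then 2476 and 2494), the latter not passing after quantile normalization (adjusted p = 0.053) or without any 1 of the 4 chips compared (up to 0.13).

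The 3 probe sets of Psmc6 were all higher with captopril, by 0.21, 0.25 and 0.98. The second lost its call without either Tg-18mo chip or Tg-18mo-ACEI replicate 2 (adjusted p up to 0.14). The last (1417769_at) was dim, with 302 and 243 for Tg-18mo, 482 and 588 for Tg-18mo-ACEI, and 428 and 311 for Tg-12mo. Against Tg-12mo it was higher in treated mice (0.54, adjusted p = 0.041) while 1417770_s_at was lower (-0.22, adjusted p = 0.033), and the brightest gave -0.06 (adjusted p = 0.39). The former call was lost after quantile normalization (0.43, adjusted p = 0.095) and without either treated chip or Tg-12mo replicate 2 (up to 0.23) and the latter without either young chip or Tg-18mo-ACEI replicate 1 (up to 0.19). Psme3 had a second probe set (1418078_at) that read 949 and 931, 644 and 756, and 531 and 482, falling from untreated old over treated to young mice without overlap. It gave -0.43 with captopril (adjusted p = 0.01, up to 0.068 without either Tg-18mo chip or Tg-18mo-ACEI replicate 1) and -0.89 at 12 months (adjusted p = 0.00015), where the brightest probe set gave -0.04 and -0.12. Psma5 gave 0.45 and 0.01 on its 2 probe sets at 12 months, and Psmd6 gave 0.54 and 0.20.

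**Figure D5:**
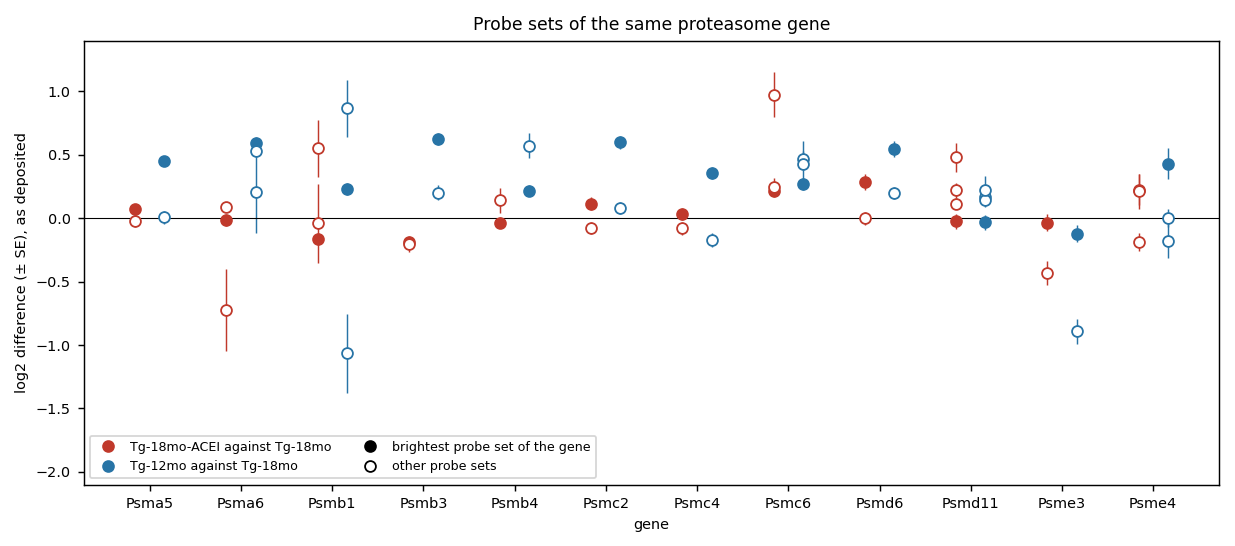
Log2 differences (y axis, with SE, as deposited) of every tested probe set of 12 proteasome genes (x axis), red for Tg-18mo-ACEI and blue for Tg-12mo, both against Tg-18mo; filled points are the brightest probe set of the gene and open points the others. Blue points spread from -1.06 to 0.87 for Psmb1, whereas the red points of Psmb3 lie together at -0.19 and -0.21.

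Of the wider ubiquitin-proteasome pathway, 20 genes outside the member list were measured and counted by the brightest probe set. With captopril 2 were higher (10%) and 3 lower (15%), against 15.9% and 17.7% of all probe sets. At 12 months 6 were higher (30%) and 4 lower (20%), against 21.5% and 25.9%. After quantile normalization the counts with captopril were 4 and 5 (20% and 25%), against 16.3% and 18.2% of all. At 12 months they were 4 and 6 (20% and 30%), against 22% and 21.9%. In treated against young mice 4 were higher (20%) and 8 lower (40%), against 22.3% and 17.7%. After quantile normalization 5 were higher (25%) and 5 lower (25%), against 18.1% and 18%. The largest differences in treated against young mice were those of Txnl1 (-0.48), Ubqln2 (-0.36, quantile 0.03) and Sem1 (-0.30). Nfe2l1, the transcription factor that raises proteasome genes when proteasome activity is low, read 2747 and 2899 for Tg-18mo, 2194 and 2059 for Tg-18mo-ACEI, and 1471 and 2146 for Tg-12mo. The untreated old chips were the highest, and 1 young chip lay among the treated ones. Nfe2l1 was lower at 12 months (-0.67, SE 0.14, adjusted p = 0.0056). Its difference with captopril was -0.41 (SE 0.14, adjusted p = 0.059), which passed narrowly after quantile normalization (-0.42, adjusted p = 0.049).

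Txnl1, a thioredoxin bound to the regulatory particle, read 7305 and 7387 for Tg-18mo, 7757 and 7873 for Tg-18mo-ACEI, and 11181 and 10696 for Tg-12mo. It was higher at 12 months (0.57, SE 0.04, adjusted p = 3.3e-05, quantile 0.33), but its other 2 tested probe sets both gave 0.04 (adjusted p = 0.56 and 0.67). Ubqln2, which shuttles tagged proteins to the proteasome, read 9694 and 9139.7, 9675 and 10639.5, and 13428 and 12656. This brightest probe set was higher at 12 months as deposited (0.47, SE 0.06, adjusted p = 0.00038) and did not pass after quantile normalization (0.15, adjusted p = 0.16). A dim probe set of Ubqln2 (1420844_at) was higher on both scalings (0.58, adjusted p = 0.041, and quantile 0.66, adjusted p = 0.030). Vcp (-0.29), the ATPase that extracts tagged proteins, its cofactor Nploc4 (-0.43) and the ubiquitin ligase Ube3c (-0.30) were lower at 12 months on both scalings.

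With captopril, Uchl5, a deubiquitinase of the regulatory particle, was higher, with 2121 and 1891 for Tg-18mo, 2498 and 2455 for Tg-18mo-ACEI, and 2537 and 2482 for Tg-12mo. Its differences from Tg-18mo were 0.31 with captopril (SE 0.06, adjusted p = 0.0068) and 0.33 at 12 months (adjusted p = 0.0031), and the treated and young chips overlapped. Ufd1, a cofactor of Vcp, was higher by 0.24 on its brightest probe set, and its second gave -0.03 (adjusted p = 0.80). Stub1, a ubiquitin ligase that works with chaperones, read 5988 and 6209, 5145 and 5057, and 5928 and 6295, so that the treated chips alone were low (-0.26, SE 0.05, adjusted p = 0.0048). Sem1, the small subunit of the lid, was lowest in treated mice on its brightest probe set, at 3970.3 and 4005, 3400.4 and 3382, and 4166 and 4179.8. Its differences were -0.23 with captopril (SE 0.04, adjusted p = 0.0044) and -0.30 in treated against young mice (SE 0.04, adjusted p = 0.00092). Its second probe set read 2159 and 2390, 2434 and 2370, and 3214 and 2862, where treated and untreated old chips overlapped (0.08 with captopril, adjusted p = 0.42). The neuronal ubiquitin hydrolase Uchl1 was lower with captopril by 0.18 on the log2 scale.

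Zfand5, a zinc finger protein that binds ubiquitin and the proteasome, gave different values by probe set. Its brightest probe set gave 0.02 with captopril (adjusted p = 0.83). The next (1416085_s_at) read 3028 and 3069 for Tg-18mo, 5708 and 5812 for Tg-18mo-ACEI, and 4215 and 4227 for Tg-12mo. The groups were apart, with the treated chips the highest, and this probe set was higher with captopril (0.92, SE 0.04, adjusted p = 3.7e-06) and at 12 months (0.47, adjusted p = 7.3e-05). A dimmer one (1416084_at) read 318.3 and 318, 895 and 829, and 539.9 and 463 and was higher too (1.44 with captopril, adjusted p = 3.0e-05). These probe sets were picked out after their values were seen.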

How the data were processed

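Total hippocampal RNA, pooled from 4 mice per chip, was hybridized to 6 Affymetrix MG430 2.0 chips, 2 per group. The intensity values deposited by the authors are linear signals of the Affymetrix software (GCOS 1.4), scaled by the authors to a target value of 600; the mean of each chip after trimming 2 percent at each end was checked to be 600. RMA values and detection calls were not used here. Gene symbols came from the platform annotation, promoter sequences from RefSeq (GRCm38.p6).

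The 64 control probe sets were left out. Probe sets with a mean signal of 100 or more in at least 1 group (23262) were fitted on the log2 scale with limma 3.58.1 under R 4.3.3, all 3 groups together, with moderated variances that follow a trend in intensity (3 residual and 5.37 prior degrees of freedom), with Benjamini-Hochberg adjustment over all of them. The test was tested on simulated data. Tables were read with pandas 2.3.3 and figures drawn with matplotlib 3.10.9 (Python 3.11.15).

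Values per chip were given for catalytic, inducible and activator subunits, for the 3 genes with the largest rise and fall per comparison on the brightest probe set, for genes with opposite calls, and for the 3 pathway genes with the largest difference. Other genes shown were chosen after their values were seen. The members and lists were chosen with earlier results of these data known. Alternatives were quantile normalization, division by the chip median, 32 added to every signal, a mean of at least 200, no filter, no trend, 2 groups only, a replicate block, the methods' test, other choices of probe set and leaving out each chip.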

Additional observations from a re-analysis of the deposited data

How the results depend on the processing

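Counts below are of proteasome probe sets, higher and lower, in the order captopril against untreated at 18 months, 12 against 18 months, and captopril against 12 months (11 and 9, 27 and 6, 7 and 30 as reported). Leaving out each chip gave 6 to 11 and 2 to 9, 21 to 28 and 3 to 6, and 4 to 7 and 19 to 26, with median log2 differences of -0.06 to -0.02, 0.066 to 0.14, and -0.16 to -0.093. Without the intensity trend the counts were 4 and 3, 21 and 5, and 4 and 18. On linear signals the methods' test of 2 groups, adjusted, gave 2 and 0, 6 and 0, and 0 and 2. On log2 signals it gave 2 and 0, 6 and 0, and 0 and 1. At an unadjusted p under 0.05 it gave 11 and 6, 25 and 6, and 3 and 24 on linear signals. The counts with a chip left out, without the trend, by the methods' test, with the replicate block and with division by the chip median stand without a share of all probe sets. They show how the member counts change with the setting and do not set the members apart. With 1 probe set per gene the limma counts were 7 and 7, 19 and 3, and 4 and 22. The 44 plain probe sets alone (no suffix for shared or mixed probes) gave 7 and 6, 12 and 4, and 6 and 13. Their medians were -0.066, 0.044 and -0.058. At 12 months 27.3% of the plain members were higher and 9.09% lower, against 21.5% and 25.9% of all probe sets tested. After quantile normalization 8 (18.2%) were higher and 5 (11.4%) lower, against 22% and 21.9%. The higher share of the plain members thus did not exceed that of all probe sets tested on this scaling. The latter include probe sets with a suffix, and no share of plain probe sets alone was taken. Division by the chip median gave 4 lower and a median of -0.00528 with captopril, and quantile normalization a median of -0.091 for captopril against 12 months. The replicate numbers do not pair the samples (correlations of deviations -0.03, 0.03 and -0.05), and the replicate block gave 11 and 8, 26 and 6, and 8 and 27. Without Psmc3ip and Psme3ip1, an alternative chosen after seeing the data, 11 and 9, 27 and 6, and 7 and 29 remained called. The cause of these shifts was not tested.

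Of 969 values of named genes under 16 alternatives, 832 kept direction and side of the threshold, 119 no longer passed, 7 newly passed and 11 changed sign. Under quantile normalization the signs of Psmb5 at 12 months (-0.072), and of Psmb7 (0.22), Psme3 (-0.017) and Ubqln2 (0.035) for captopril against 12 months turned. Psmb7 at 12 months turned with division by the chip median (0.0086), and ran from -0.034 to 0.023 on leaving out each chip, above 0 without Tg-18mo replicate 2 or Tg-12mo replicate 1. Psmb10 at 12 months ran from -0.029 (without Tg-18mo replicate 1) to 0.089, and Psme3 with captopril from -0.10 to 0.033 (without Tg-18mo-ACEI replicate 2). Psmb9 turned without Tg-12mo replicate 2, with ranges of -0.45 to 0.012 at 12 months and -0.092 to 0.36 for captopril against 12 months.

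With 2 chips of pooled RNA per group, differences below about the spread of single chips cannot be resolved, and groups of 2 cannot be screened for a chip that stands apart. The dim probe sets of Psmb8 and Psmb9 had standard errors of 0.16 and 0.18, against 0.04 for the bright Psmb3.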

Other observations

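The probe set shared by Psme2, the partner of Psme1 in the interferon-inducible activator, and Psme2b read 1188 and 1224 for Tg-18mo, 1168 and 1135 for Tg-18mo-ACEI, and 1344 and 1455 for Tg-12mo. Young chips were the highest and treated chips the lowest. The log2 difference was 0.21 at 12 months (SE 0.06, limma adjusted p = 0.024), -0.07 with captopril (adjusted p = 0.45) and -0.28 for captopril against 12 months (adjusted p = 0.0084). The signals of the 2 genes cannot be told apart on this probe set.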
